A study of Equus caballus with 12 samples.

Results

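The miRNA profiles of lung (L) and liver (LR) were compared in 8 small RNA libraries, 4 per tissue, of the 12 libraries of a series that also holds heart. The horses were stallions of the Polish cold-blooded type, 1 to 2 years old, numbered 27, 30, 32 and 34, and each gave both tissues. The lung came from the caudal lobe of the right lung and the liver from the right lobe, both collected at slaughter into RNAlater. No horse was given a treatment, and each library was made from whole tissue. The miRNAs described are the known horse miRNAs of the deposited table, which are 294 of its 629 entries. Of these, 243 had at least 10 normalized counts in at least 4 of the 8 libraries and were tested, and 10 of the 294 were at 0 in all 8 libraries.

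A miRNA is cut from a hairpin RNA and guides silencing proteins to target mRNAs, mainly through its seed, bases 2 to 8 from the 5′ end. Many miRNA genes lie side by side and are transcribed as 1 RNA. Several miRNAs are tied to a cell type: miR-122 to hepatocytes, the miR-200 family to epithelium, and miR-34b, miR-34c and miR-449 to cells that bear motile cilia, as the airways do. In whole tissue, fewer cells of a type and less of a miRNA per cell cannot be told apart.

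The known miRNAs are given by name only, and the other 335 entries are named by their sequence of 18 to 25 bases. The 3 most abundant of these over the 8 libraries are shown because their seeds, in capitals, are those of the let-7, miR-30 and miR-26 families, so that each family's level in the named entries is not its whole level.
let-7 seed: uGAGGUAGuaguuugugcuguug
miR-30 seed: uGUAAACAcccgacuggaagccg
miR-26 seed: uUCAAGUAauucaggauagguug
The entry with the let-7 seed had 72052, 86091, 115576 and 50869.8 normalized counts in the lungs of horses 27, 30, 32 and 34 (the order used throughout) and 32486, 37653, 27890.5 and 26752 in the livers. Every lung was above every liver, and in a fit of all entries of the table it was higher in lung (log2 FC 1.33 ± 0.26 (SE), adjusted p = 0.00295). The miR-30 seed entry had 93138, 80356, 93178 and 54119 in lung and 10352, 9002, 5918 and 12392 in liver, which was a log2 fold change of 3.11 ± 0.28 (SE, adjusted p = 3.47e-05). The miR-26 seed entry, with 29413 to 55348 in lung and 40044 to 57315 in liver, overlapped between the tissues and was not called (log2 fold change -0.23 ± 0.22, adjusted p = 0.44).

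Values are normalized counts, in which the authors had divided the reads of a library by its size factor. A 0 stands for fewer than 6 reads, since the authors kept entries from that number on. Lungs held 3536536 to 7560746 reads and livers 3066869 to 8595569. The shallowest was the liver of horse 27, where the lowest value above 0 was 11.1, against 3.71 to 6.79 in the other 7 libraries. Fold changes (log2 FC) are on the log2(normalized count + 1) scale, lung minus liver, with their standard error. A call needed an adjusted p under 0.05 (limma, Benjamini-Hochberg) and a log2 FC of 1 or more in either direction.

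In liver the most abundant miRNAs took a larger share than in lung. The 10 most abundant known miRNAs of each library took 66.9, 65.9, 71.5 and 64.3% of the known miRNA values in lung and 77.9, 74.5, 73.6 and 78.1% in liver. Every liver was above every lung, with means of 67.2 ± 3.07% (SD, n = 4) and 76.0 ± 2.30% (exact two-sided permutation test, p = 0.0286, the smallest that 4 against 4 allows; adjusted over 8 measures of makeup, 0.0381). With the horse as a block, since each horse gave both tissues, p was 0.125, the smallest that 4 pairs allow, so that the call was lost. To reach 90% of the values, 31, 32, 28 and 35 miRNAs were needed in lung and 22, 25, 25 and 23 in liver (exact permutation test, p = 0.0286, and 0.125 with the block). The number of known miRNAs above 0 overlapped, at 231 to 247 in lung and 230 to 252 in liver (exact permutation test, p = 0.486).

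The single most abundant miRNA of each library took 18.3 ± 2.13% in lung and 22.3 ± 1.54% in liver (SD, n = 4). This difference did not pass (exact permutation test, p = 0.0571, and 0.25 with the block). miR-122, the main miRNA of hepatocytes, differed widely in share, and its part in the larger share of the top 10 in liver was not tested. It was the top miRNA in all 4 livers, with 24.5, 21.6, 21.8 and 21.1% of the known values, and held 0.00492, 0.0522, 0.0347 and 0.0356% in lung. Leading lung were miR-26a, which restrains cell growth in many tissues, with 16.4, 17, 16.3 and 21.1%, and let-7a, of a family that promotes differentiation, with 18.7, 15.8, 12.4 and 11.6%. Both came next after miR-122 in liver by mean. After them in lung came the endothelial miR-126-5p, with a mean of 9.52 ± 2.55% (SD, n = 4) against 2.79 ± 0.271% in liver. In liver miR-148a came next, with 9.21 ± 1.16% against 2.87 ± 1.87% in lung.

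**Figure D1:**
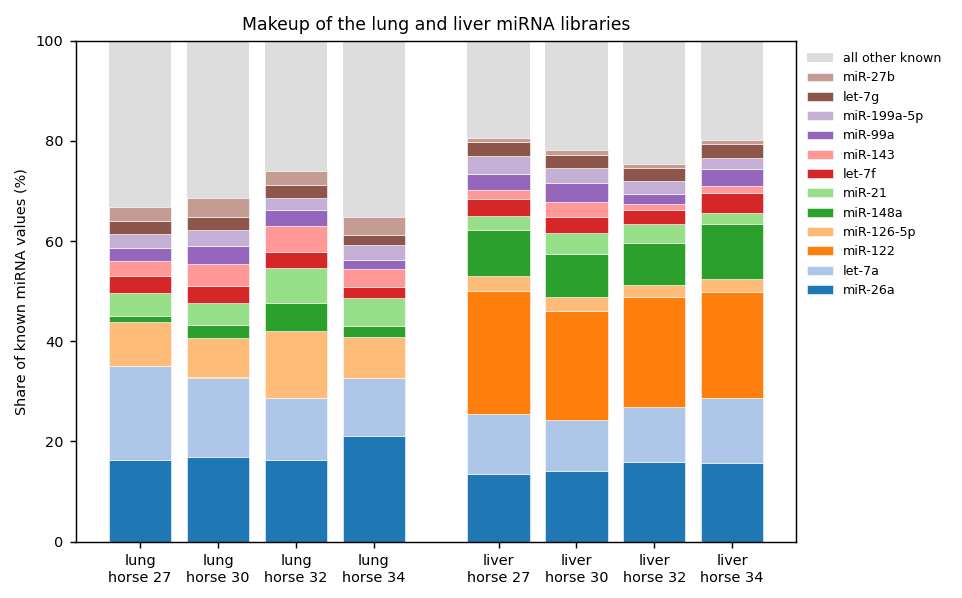
Share of the known miRNA values in percent (vertical axis) that each of 12 abundant miRNAs took in every lung and liver library (bars, 1 per horse and tissue). The miR-122 band fills 21.1 to 24.5% of the 4 livers and is too thin to see in the 4 lungs, while the miR-26a and let-7a bands at the foot are present in all 8.

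Of the 10 most abundant miRNAs of each tissue, 8 were shared. The shared ones were miR-26a, let-7a, miR-126-5p, miR-21, let-7f, miR-148a, miR-199a-5p and miR-99a, and of these miR-126-5p was higher and miR-148a lower in lung. In level, miR-26a had 778201, 747472, 819476 and 803170.4 in lung and 747340.0, 678628, 693306 and 870951 in liver (log2 FC 0.08 ± 0.13 (SE), adjusted p = 0.622), and its libraries overlapped. For let-7a the values ran from 442102 to 887908 in lung and from 479010.3 to 717077 in liver (log2 FC 0.14 ± 0.24 (SE), adjusted p = 0.635). miR-21, an abundant miRNA of many cell types, had 211768, 195326, 352516 and 214818 in lung and 164585, 201254, 168165 and 129687 in liver, and its higher mean in lung did not pass the test (log2 FC 0.53 ± 0.23 (SE), adjusted p = 0.0765). miR-143, the smooth muscle miRNA, and miR-27b were among the 10 in lung only, miR-122 and let-7g in liver only.

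Over the 243 tested, 62 miRNAs were higher in lung (upregulated) and 71 were lower (downregulated), so that 54.7% were called, 25.5% upward and 29.2% downward. The median log2 fold change was 0.06. The changes were large: 48 calls reached 3 on the log2 scale in size, 20 higher and 28 lower, and 9 of the higher and 18 of the lower reached 5. With miRNAs at 0 in 1 tissue set to the lowest fold that their floor allows, 18 higher and 28 lower reached 3, and 9 and 15 reached 5. In 134 miRNAs, or 55.1%, the 4 lung and 4 liver values did not overlap, 65 with lung above and 69 with liver above. The calls were not spread evenly over levels: among the 51 miRNAs with a mean of at least 10000 in either tissue, 20 were higher and 6 lower, and among the 73 with a mean of 100 to 1000, 15 were higher and 34 lower. A further 8 miRNAs passed the adjusted p with a smaller fold, and 18 had the fold but did not pass.

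**Figure D2:**
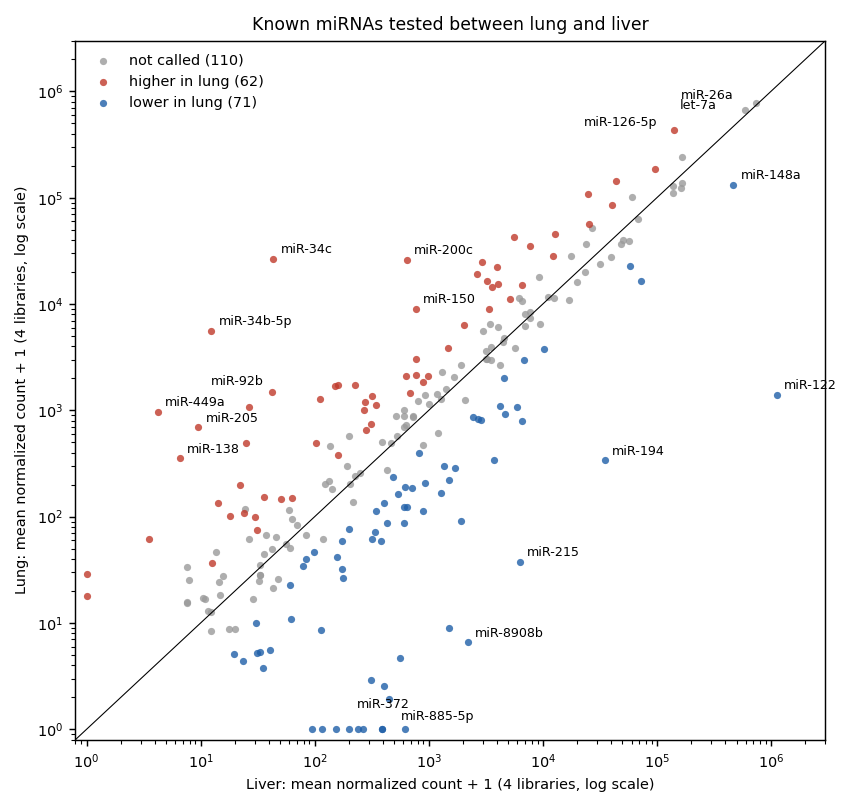
Mean normalized count + 1 of each of the 243 tested miRNAs in liver (horizontal) and lung (vertical), both on log axes, with 1 point per miRNA; the line marks equal levels. The 71 miRNAs lower in lung reach down to a lung value of 0 at the foot, miR-122 lies far to the right, and miR-34c, miR-34b-5p, miR-449a and miR-205 stand well above the line, while miR-26a and let-7a sit on it.

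The largest rises in lung among the tested miRNAs were in those of ciliated cells. All 3 tested multiciliated miRNAs, which promote the making of cilia, were higher, beside 25.5% over all tested. These 3 met the filter only through their lung values, so that a lower call was hardly possible. miR-34c had 14934, 18884, 28972 and 43877 in lung against 0, 82.9, 27.2 and 59.4 in liver (log2 FC 10.30 ± 1.28 (SE), adjusted p = 0.000154), a ratio of means of 629. Its neighbour miR-34b-5p had 3275, 6085, 6276 and 6733 against 0, 26.6, 5.87 and 13.2 (log2 FC 9.55 ± 0.91 (SE), adjusted p = 3.48e-05). miR-449a, their relative by seed, had 513, 1234, 1557 and 583 against 0, 8.85, 0 and 3.96 (log2 FC 8.36 ± 0.81 (SE), adjusted p = 3.73e-05). Every lung lay above every liver in all 3, and each was at 0 in the liver of horse 27, the shallowest library. The fourth listed member, miR-449b, was not tested; it had 35.4, 0, 72.3 and 23.8 in lung and was at 0 in all 4 livers. For this list the summed level was 18757 to 51216 in lung and 0 to 118 in liver.

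All 6 epithelial miRNAs were higher in lung without overlap, with a median log2 fold change of 4.31 against 0.06 over all tested. Of all tested, 25.5% were higher in lung and 55.1% did not overlap in either direction. The miR-200 family keeps cells epithelial by holding down ZEB1 and ZEB2. miR-200c had 26187, 36682, 22867 and 18622 in lung and 429, 924, 718 and 512 in liver (log2 FC 5.35 ± 0.31 (SE), adjusted p = 3.41e-06), and miR-141, its neighbour in the genome, had 465, 671, 1139 and 2017 and 18.5, 26.6, 40.4 and 16.5 (log2 FC 5.21 ± 0.49 (SE), adjusted p = 3.36e-05). The second group of the family moved less. In it miR-429 rose by 3.41 on the log2 scale, miR-200b by 3.09 and miR-200a by 2.81 (adjusted p = 7.64e-06, 1.02e-05 and 6.92e-05). All of these were above 0 in every liver: miR-200b, for one, had 3598, 3279.6, 2105 and 2773 there against 26595, 28325, 26228 and 18134 in lung. miR-205, a miRNA of basal epithelial cells, had 280.3, 561, 1188 and 760.3 in lung and 12.9, 5.63, 11 and 4.62 in liver (log2 FC 6.11 ± 0.50 (SE), adjusted p = 1.45e-05). It met the filter only through its lung values.

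**Figure D3:**
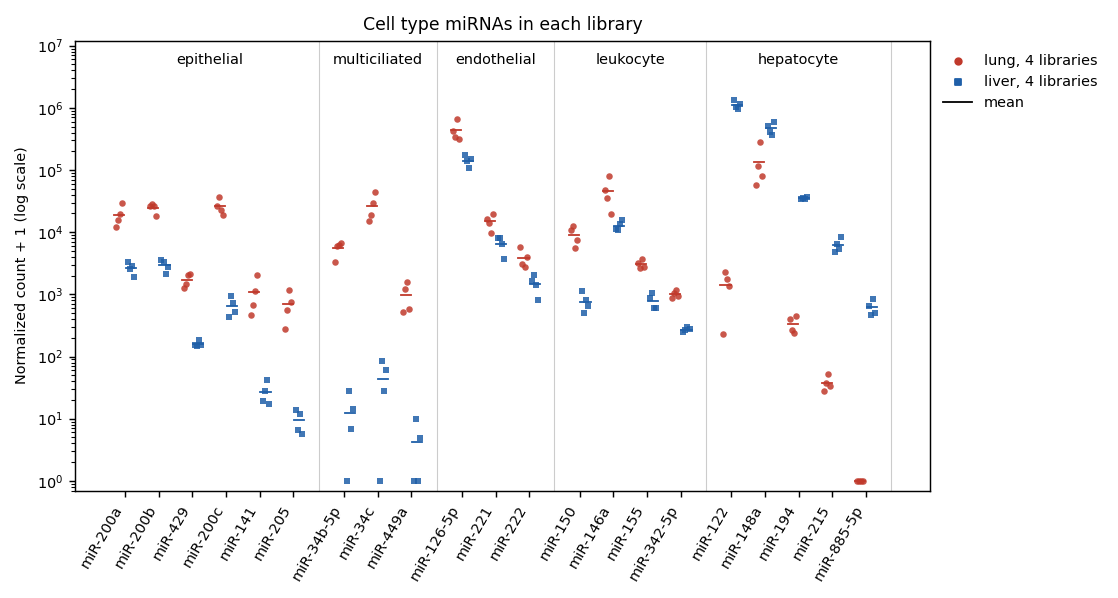
Normalized count + 1 on a log axis for 21 miRNAs of 5 cell type lists, with 1 point per library (circles, lung; squares, liver) and a line at the mean of the 4. Lung lies above liver in the epithelial, multiciliated, endothelial and leukocyte panels, and liver above lung in all 5 of the hepatocyte panel, where miR-885-5p is at 0 in every lung.

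The miR-183 cluster, known from sensory cells, was higher in all 3 members, beside 25.5% over all tested. miR-182 had 1563, 1858, 2301 and 1004 in lung and 154, 191, 111 and 143 in liver, miR-183 had 1290.4 ± 416 and 110.4 ± 34.9 (SD, n = 4), and miR-96, the least abundant, had 58 to 302 and 17.8 to 25.9. Their log2 fold changes were 3.44, 3.53 and 2.93 (adjusted p = 2.26e-05, 3.36e-05 and 0.00115). Among the neural and endocrine miRNAs, 3 of 5 tested were higher, beside 25.5% over all miRNAs, and none lower. These 3 met the filter only through their lung values, so that a lower call was hardly possible for them. miR-138 had 321, 309, 166 and 628 in lung and 0, 8.85, 8.08 and 5.28 in liver (log2 FC 6.04 ± 0.77 (SE), adjusted p = 0.000174). The neuronal miR-9a had 544, 572, 235 and 599.6 and 0, 19.3, 17.6 and 59.4 (log2 FC 5.22 ± 1.12 (SE), adjusted p = 0.00405). The third was miR-153, with 12.9, 12.4, 37.9 and 47.5 in lung and 0 in all livers. The more abundant miR-128, at 19891 in lung and 23431 in liver, and miR-7, at 4362 and 4494, were not called.

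miR-92b had the tightest of the large rises, with 1338, 1484, 1759.6 and 1380.3 in lung and 44.4, 37.8, 47.7 and 35 in liver (log2 FC 5.14 ± 0.21 (SE), adjusted p = 2.22e-07), at a ratio of means of 36.1. Its relative miR-92a, of the miR-17 cluster, had 27630.3 and 39395 and was not called (log2 FC -0.56 ± 0.25 (SE), adjusted p = 0.0822). miR-551a had 89.4, 63.7, 109 and 268 in lung and 0, 23.3, 19.1 and 10.6 in liver (log2 FC 3.72, adjusted p = 0.011), and its call was lost without horse 34 (adjusted p = 0.0508).

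In 5 miRNAs all 4 lungs were above 0 and all 4 livers at 0, and all 5 were scarce. They were miR-153, miR-224, miR-582-5p, miR-216b and miR-615-5p. The most abundant after miR-153 was miR-224, with 21.7, 18.5, 11.9 and 15.8 in lung. Set against a liver floor of 6.07, the mean of the lowest values above 0 in the 4 livers, miR-153 was at least 4.55-fold and miR-224 at least 2.8-fold higher in lung, and for miR-582-5p, miR-216b and miR-615-5p the bound was 1.85, 1.69 and 1.3.

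The tested miRNAs of the blood vessel and blood cell lists were also higher in lung. All 3 endothelial miRNAs were higher without overlap, beside 25.5% higher and 55.1% without overlap in either direction over all tested. miR-126-5p, from an intron of EGFL7 and typical of endothelium, had 416232, 344051, 668930.4 and 312538 in lung and 171543, 140207, 106849 and 149808 in liver (log2 FC 1.57 ± 0.26 (SE), adjusted p = 0.00101). miR-221 and miR-222, which act on KIT and the cell cycle, had means of 14985 ± 4229.6 and 3851 ± 1312 in lung and 6559 ± 2012 and 1477 ± 512 in liver (SD, n = 4), with log2 fold changes of 1.21 and 1.40; without horse 34 that of miR-221 was 0.81 and it was not called. The list summed to 336150.2 to 681325 in lung and 114762 to 181135 in liver.

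All 5 tested leukocyte miRNAs were higher in lung, 4 of them without overlap. The shares over all tested were 25.5% higher in lung and 55.1% without overlap in either direction. miR-150, of mature lymphocytes, had 10942, 12364, 5500.5 and 7486 in lung and 1121, 500.5, 802 and 637 in liver (log2 FC 3.56 ± 0.34 (SE), adjusted p = 3.48e-05). miR-146a, a brake on inflammatory signalling, had 47669, 35730.5, 78929 and 19309 and 11115, 10667, 13659.9 and 15705 (log2 FC 1.67 ± 0.40 (SE), adjusted p = 0.00652). miR-146b-5p overlapped between the tissues, at 2152 to 11727 and 1093 to 3771 (log2 FC 1.54 ± 0.56 (SE), adjusted p = 0.0414), and its call did not hold without horse 27, 30 or 32, with adjusted p of 0.109, 0.0506 and 0.207. miR-155, of activated lymphocytes and macrophages, and miR-342-5p rose by 2.01 and 1.89 on the log2 scale. The sixth member, miR-142-5p, had 11309.7, 5832, 0 and 0 in lung and 0, 0, 0 and 4607 in liver and was not tested. The list summed to 32616 to 101027 in lung and 15327 to 23162 in liver.

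Of the red blood cell miRNAs, miR-486-5p, which is abundant in erythroid cells and muscle, had 66840.1, 55783, 25444 and 23889 in lung and 6377, 6888, 5066 and 4149.8 in liver (log2 FC 2.82 ± 0.38 (SE), adjusted p = 0.000226). The second, miR-144, was above 0 in the lung of horse 34 alone, at 1349.7, and at 44.4 and 163 in the livers of horses 27 and 32. The blood held in each piece of tissue was not measured, and its part in these levels was not tested.

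Of the 7 striated muscle miRNAs 4 were tested and 3 of these were higher in lung, beside 25.5% over all. Among the 3, miR-133b met the filter only through its lung values. miR-208a and miR-208b, from the heart muscle myosin genes, were at 0 in all 8 libraries, and miR-206 was at 0 in all 4 livers, with a mean of 1.55 in lung. miR-1 had 7886, 10161, 8830.3 and 8965 in lung and 1321, 4725, 1483 and 5919.7 in liver (log2 FC 1.71 ± 0.50 (SE), adjusted p = 0.0155), miR-133a had 665, 1037, 759 and 3055 and 92.5, 668, 325 and 178 (log2 FC 2.20 ± 0.68 (SE), adjusted p = 0.0218), and miR-133b had 52.3, 76.7, 58.9 and 216 and 0, 45.1, 14 and 9.25 (log2 FC 3.22 ± 1.09 (SE), adjusted p = 0.0303). All 3 calls were lost without horse 32 (adjusted p = 0.0818, 0.0516 and 0.0751), that of miR-1 also without horse 27 (0.0579) and those of miR-133a and miR-133b without horse 34 (0.0997 and 0.117). The myosin-gene miRNA miR-499-5p was not called, with 243 in lung and 225 in liver.

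The smooth muscle and mesenchymal miRNAs divided. miR-143 had 143865, 196994, 259613 and 141190.4 in lung and 101199, 150629, 54247 and 77252 in liver, and its call (log2 FC 1.01 ± 0.34 (SE), adjusted p = 0.0302) was lost with the horse as a block (adjusted p = 0.0615) and without horse 27, 32 or 34 (0.0561, 0.142 and 0.0660). miR-145, its neighbour, had 11511 ± 3349.9 and 6252 ± 1731 (SD, n = 4) and a smaller fold (log2 FC 0.87 ± 0.28 (SE), adjusted p = 0.0253). miR-218 was higher without overlap, at 910.1 to 3182 in lung and 532 to 759.6 in liver (log2 FC 1.61 ± 0.38 (SE), adjusted p = 0.00584). miR-199a-5p, miR-199b-5p and miR-214, of fibroblasts, had log2 fold changes of -0.07, -0.07 and 0.18, none of them called.

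Several families were higher in lung in every member, beside 25.5% of all tested miRNAs. Without overlap in either direction were 55.1% of all tested. All 5 miRNAs of the miR-23, miR-27 and miR-24 clusters, which are abundant in vessels, rose without overlap: miR-23a by 2.50, miR-27a by 2.15, miR-24 by 2.12, miR-23b by 2.04 and miR-27b by 1.72 on the log2 scale. miR-24 had 138728, 108507, 92915 and 96352 in lung and 27794, 29058, 19321 and 24349.6 in liver (adjusted p = 3.36e-05), and miR-27b had 128949.6, 165932, 136544 and 142257 and 50245, 49653, 39724 and 35758 (adjusted p = 4.30e-05). Summed over the list, lungs had 305939 to 344485 and livers 72913 to 96370.4.

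The miR-15 and miR-16 group, which limits the cell cycle, was likewise higher in all 5 members, beside 25.5% over all tested. Rises ran from 1.01 for miR-497 to 2.34 for miR-195 on the log2 scale. miR-16 had 15481, 17652, 11429 and 17795 in lung and 4854, 3604, 3963 and 3822 in liver (log2 FC 1.93 ± 0.20 (SE), adjusted p = 6.31e-05), and miR-195 had 17845, 24883, 6622 and 17274 and 2954, 2778, 1639.8 and 5673 (log2 FC 2.34 ± 0.49 (SE), adjusted p = 0.0035). The call of miR-497 was lost without horse 27 or 34, where its log2 fold change was 0.87 and 0.92, and under TMM scaling, where it was 0.91. In the miR-29 family, which targets collagen mRNAs, miR-29b had 1521, 1744, 2324 and 3048 and 625, 805, 899 and 734 (log2 FC 1.45 ± 0.26 (SE), adjusted p = 0.00145), miR-29c was called with a lung of horse 34 at 3007 and the other 3 lungs at 552 to 701 (log2 FC 1.86 ± 0.60 (SE), adjusted p = 0.0264), and miR-29a, the most abundant, was not called (log2 FC 0.50 ± 0.30 (SE), adjusted p = 0.182). The call of miR-29c was lost without horse 27, 30 or 34 (adjusted p = 0.0602, 0.0629 and 0.0647).

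Other families moved in part. miR-100 was called (log2 FC 1.06 ± 0.24 (SE), adjusted p = 0.00464; 0.99 and 0.86, short of the fold, without horse 27 or 32) but the other 4 of the miR-99, miR-100 and miR-125 list were not, among them miR-99a, with 124789.8 in lung and 161408 in liver, and miR-125b-5p, with 101512 and 60925. miR-181a, of lymphocytes and vessels, had 57182 ± 18871 in lung and 25212 ± 4457 in liver (SD, n = 4; log2 FC 1.15 ± 0.25 (SE), adjusted p = 0.00429; 0.84, and not called, without horse 34), and miR-181b, at a log2 fold change of 0.91 ± 0.22 (SE), passed on p but not on fold. miR-30c did the same (log2 FC 0.95 ± 0.23 (SE), adjusted p = 0.00663), while miR-30b and miR-30e overlapped between tissues. The miR-30 seed entry named by its sequence was called higher in lung in the fit of all entries (log2 FC 3.11 ± 0.28 (SE)). In the miR-130 and miR-301 list, miR-130a (1.17) and miR-454 (2.17) were higher and miR-130b (1.45) was not called, and without horse 30 miR-130a was not (0.96, adjusted p = 0.0556). In the miR-17 clusters 3 of 12 tested were higher, close to the 25.5% over all miRNAs, and none was lower: miR-20b (1.44), miR-106b (1.11) and miR-363 (1.09). Without horse 34 miR-106b fell short of the fold (0.96), and without horse 32 miR-363 did (0.87); 5 of the list were higher when every library was scaled to the same total and 2 under TMM scaling.

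Liver stood out first by its hepatocyte miRNAs, all 5 of which were lower in lung without overlap. Over all tested, 29.2% were lower in lung and 55.1% did not overlap in either direction. The median log2 fold change of the 5 was -7.38. With miR-885-5p, at 0 in lung, set to the lowest fold that its floor allows, it was -6.98. miR-885-5p met the filter through liver alone. miR-122 had 1359774, 1044284, 948651 and 1165485 in liver and 234, 2294, 1746 and 1359 in lung (log2 FC -10.04 ± 0.65 (SE), adjusted p = 7.20e-06), a ratio of means of 802. It was above 0 in every lung and lowest in the lung of horse 27. miR-194 had 33886, 35343, 34401 and 36305 in liver, a mean of 34984 ± 1068 (SD, n = 4), and 399, 271, 241 and 443 in lung (log2 FC -6.73 ± 0.23 (SE), adjusted p = 1.24e-07). miR-215, which lies beside miR-194 and like it is driven by hepatocyte nuclear factors, had 4856, 6548, 5314 and 8376 and 27.4, 36.5, 50.5 and 32.8 (log2 FC -7.38 ± 0.27 (SE), adjusted p = 1.29e-07). miR-148a was nearer between the tissues, at 359262 to 601914 in liver and 57806 to 278539 in lung (log2 FC -2.06 ± 0.45 (SE), adjusted p = 0.00429). Its relative miR-148b-5p, at 3153 and 3022, was not called.

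In 9 miRNAs all 4 livers were above 0 and all 4 lungs at 0. miR-885-5p, a liver miRNA, had 660.4, 460.2, 856 and 494 and was at least 126-fold higher in liver, set against a lung floor of 4.88, the mean of the lowest values above 0 in the 4 lungs. miR-372, known from embryonic stem cells, had 932, 257, 195 and 169.7 (at least 79.5-fold), and miR-383 had 235, 68.4, 194 and 116 (at least 31.4-fold). The other 6 were members of the miR-8908 family. miR-2114 came close, with 313, 391, 600.0 and 477 in liver and a single lung, that of horse 30, above 0 at 3.71.

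The miR-8908 family, named in the horse, was lower in lung in all 11 members tested, beside 29.2% over all tested. All 11 met the filter only through their liver values, so that a higher call was hardly possible. The median log2 fold change was -7.47, with a range from -9.75 to -6.33. These sizes depend on the pseudocount, because most lung values are 0: the median was -8.38 with 0.5 and -4.56 with 10, and -6.32 with the members at 0 in lung set to the lowest fold that the floor allows. All 11 were called in each case. The 12 listed members summed to 2853 to 13459 in liver and 0 to 41.4 in lung, where 7 of them were at 0 in all 4 libraries. miR-8908b was the most abundant, with 2329, 4292, 1100.1 and 1146 in liver and 0, 22.3, 0 and 0 in lung (log2 FC -9.75 ± 1.06 (SE), adjusted p = 7.42e-05). miR-8908l had 1521, 3561, 313 and 625 and 0, 13.6, 18.2 and 0 (log2 FC -7.95 ± 1.20 (SE), adjusted p = 0.000531), and miR-8908j had 579, 1084, 292 and 297 and 0, 5.56, 9.12 and 0 (log2 FC -7.41 ± 0.87 (SE), adjusted p = 0.000107). In each of these 3 the liver of horse 30 was highest. Of the 7 members at 0 in lung 6 were above 0 in every liver, and these, miR-8908g, miR-8908c, miR-8908e, miR-8908m, miR-8908h and miR-8908d, were at least 79.9-, 53.7-, 49.3-, 40.7-, 23.6- and 19.1-fold higher in liver. Reads of so similar a family may be shared among its names, so that the split between members is uncertain.

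The largest group lower in lung was the imprinted DLK1-DIO3 cluster, whose miRNAs are transcribed from the maternal chromosome. Of its 41 members 37 were tested, and 31 were lower, 6 not called and none higher. The lower calls were 83.8% of those tested, beside 29.2% over all miRNAs, and 22 of the 31 held whichever horse was left out. Some tested members, such as miR-154a and miR-758, met the filter only through their liver values, so that a higher call was hardly possible for those. Scaling every library to the same total left 27 lower, and TMM scaling 33. The median was -2.03. Levels were low: the members summed to 19962 to 30858 in liver and 4688 to 8257 in lung, so that the tissues did not overlap. miR-411 had 6412, 5063, 3565 and 3666 in liver and 966, 1092, 1132 and 543 in lung (log2 FC -2.34 ± 0.31 (SE), adjusted p = 0.000207). miR-379, the most abundant in liver, had 8258, 7156, 1983 and 6464 and 932, 2280.2, 763 and 335 (log2 FC -2.61 ± 0.64 (SE), adjusted p = 0.00722), and the liver of horse 32 lay below the lung of horse 30. miR-127, next after these in liver by mean, was the member that moved least (log2 FC -0.70 ± 0.25 (SE), adjusted p = 0.0411), with 1779.7, 2789.6, 2209.7 and 1473 in liver and 1392, 1367, 1304 and 941 in lung. The largest change was in the scarce miR-758, at 149.8, 167, 87.4 and 50.2 in liver and 13.7, 0, 16.8 and 0 in lung (log2 FC -4.69 ± 1.07 (SE), adjusted p = 0.00535).

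Of the 6 miRNAs of the X-linked miR-424 and miR-503 cluster, which restrains the cell cycle, 5 were also lower in lung, beside 29.2% over all tested, and 4 when every library was scaled to the same total or all 12 libraries were fitted together. miR-450c had 4349, 3772, 4155 and 4728 in liver and 797, 649, 1193 and 1800.0 in lung (log2 FC -2.04 ± 0.32 (SE), adjusted p = 0.000631), miR-450a had 2731 and 835 (-1.85), and miR-450b-5p had 2433 and 871 (-1.51). miR-503 had 594, 1007, 573 and 656 in liver and 262, 131, 70.9 and 273 in lung (log2 FC -2.09 ± 0.45 (SE), adjusted p = 0.00405). miR-424 overlapped, since the lung of horse 34 was at 787 and the livers at 669.7 to 1079 (log2 FC -1.24 ± 0.45 (SE), adjusted p = 0.041), and its call was lost without horse 27, 30 or 32 (adjusted p = 0.0925, 0.185 and 0.109). The member not called was miR-542-5p (log2 FC -0.73 ± 0.35 (SE), adjusted p = 0.107).

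In some families none of the tested members with a miRNA name was called. None of the 7 let-7 miRNAs was called, with log2 fold changes from -0.62 to 0.14 and a summed level of 635415 to 1234899.6 in lung and 766160.0 to 1183476 in liver. None of the 6 listed miRNAs of the X-linked miR-532 cluster was called either, and theirs ran from -0.24 to 0.30. miR-532-5p, for one, had 5239.7, 4449.8, 6387 and 3046 in lung, beside 4978, 6003, 3361 and 3843 in liver. Of the HOX cluster miRNAs, miR-10a had 36819 and 48429, miR-10b 1045 to 4698 and 368 to 5113, and miR-196b at most 58.2 in any library, with no call among the 3 tested. These p-values do not show that the tissues were equal, and the standard errors of the named ones, such as 0.13 for miR-26a and 0.83 for miR-10b, give the room left.

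The miRNAs were next set beside their neighbours in the genome, a comparison chosen after the values were seen. Names were matched to the RefSeq annotation of the TB-T2T horse assembly, which is not the assembly of the deposited table and was used only for which genes lie next to each other. Of 294 names 293 matched, and 33 groups had at least 2 tested miRNAs whose genes lay within 10 kb of the next, holding 124 miRNAs. Of the 124 miRNAs 82 were called, beside 54.7% over all tested. In 18 groups all calls were upward in lung, in 6 all were downward, in 9 there was no call, and in 0 were members called in opposite directions. A group with 1 call, such as miR-145 and miR-143 or miR-181a and miR-181b, could not show opposite directions. All tested members were called in 12 of the upward and 3 of the downward groups. A miRNA with gene copies in more than 1 place, such as miR-16 or miR-24, counted in both, and neighbours that are read as 1 RNA are not independent of each other.

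Within groups the sizes were often close. miR-200c and miR-141 differed by 0.15 on the log2 scale, though miR-200c was the more abundant in every library. miR-221 and miR-222 differed by 0.19, miR-15a and miR-16 by 0.23, and miR-145 and miR-143 by 0.14. The largest group, from miR-379 to miR-656 in the DLK1-DIO3 cluster, had 26 of 31 lower and a range of 3.84. A smaller one beside it held miR-433 (-2.03), miR-432 (-1.78) and miR-136 (-1.76), all lower, with miR-127 not called. miR-365 and miR-193b were lower together, with miR-365 at 5765, 5495, 6984 and 7889 in liver and 759, 1120.3, 693 and 572 in lung (log2 FC -3.08 ± 0.25 (SE), adjusted p = 1.45e-05) and miR-193b at 603 and 122 (-2.41). The group from miR-17 to miR-92a had no call but a wide range, in which miR-18a had 73.3, 69.2, 42.8 and 287 in lung and 51.8, 42.6, 0 and 0 in liver (log2 FC 3.70 ± 1.47 (SE), adjusted p = 0.0576).

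**Figure D4:**
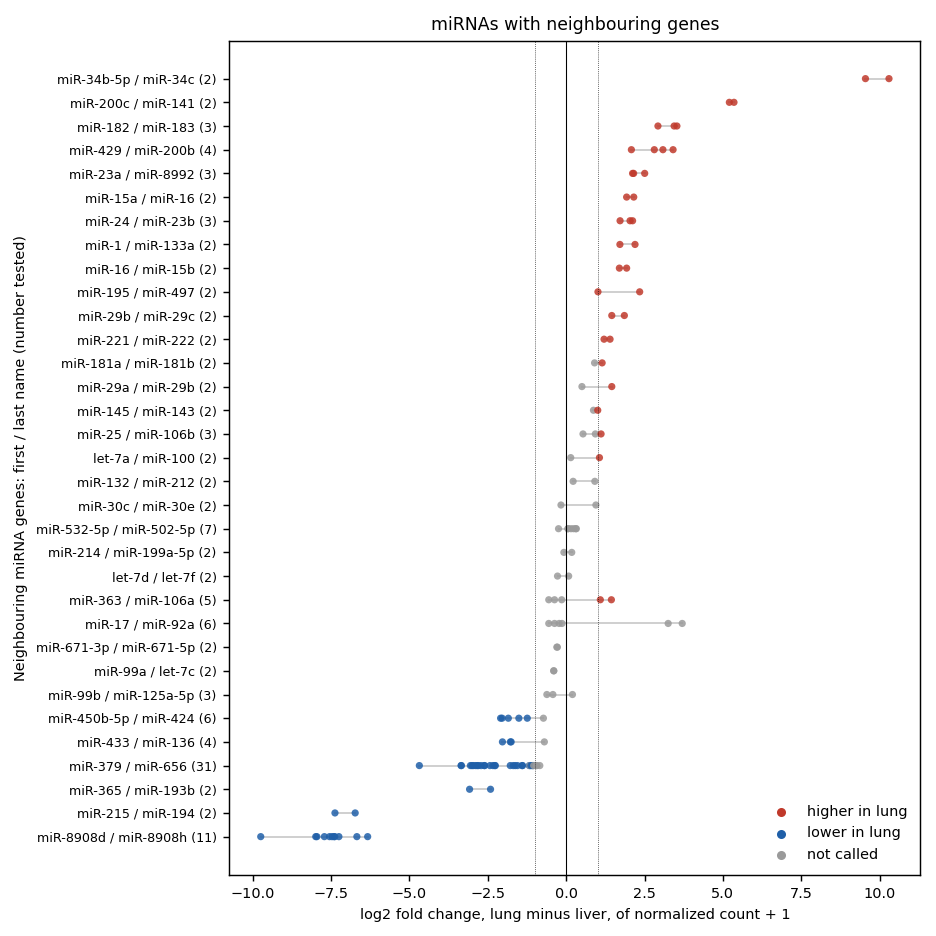
log2 fold change, lung minus liver (horizontal), of the tested miRNAs in 33 groups of neighbouring miRNA genes, 1 row per group and 1 point per miRNA, ordered by the group's median; dotted lines mark -1 and 1. No row holds both upward and downward calls: miR-34b-5p and miR-34c lead at the top, the DLK1-DIO3 rows lie left of 0, and the 11 miR-8908 miRNAs close the plot.

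Horses of 1 tissue were alike next to the difference between tissues. Over the 243 miRNAs, Pearson's r of the log2 values was 0.902 to 0.974 between lungs, 0.919 to 0.980 between livers and 0.634 to 0.761 between a lung and a liver, which is a description across miRNAs and not a test. The median SD over the 4 horses was 0.50 in lung and 0.38 in liver on the log2 scale. Leaving out 1 horse at a time, 100 of the 133 calls held in all 4 fits and 33 were lost in at least 1. Among the 33 were miR-1, miR-133a, miR-133b and miR-143, and 9 of the DLK1-DIO3 calls.

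The largest spread within a tissue belonged to names that were high in some horses and at 0 in others. In lung miR-103 had 36505, 50229.8, 27063 and 0 and miR-107a, which differs from it by little in sequence, had 33567, 0, 0 and 30697, while both were above 0 in all 4 livers, at 16533, 19744, 12824 and 21721 and 18840.1, 22022, 14145 and 24496. Neither was called (log2 FC -2.71 ± 3.21 (SE), adjusted p = 0.501 and log2 FC -6.76 ± 3.66 (SE), adjusted p = 0.145). Without the lung of horse 34 the sign of miR-103 turned and it was called higher (log2 fold change 1.08, adjusted p = 0.0102), and miR-107a was then called lower (-9.24, adjusted p = 0.0468). Summed, which was chosen after the values were seen, the pair had 70072, 50229.8, 27063 and 30697 in lung and 35373, 41766, 26969 and 46217 in liver, with no 0 and no call (log2 fold change 0.17 ± 0.32 (SE), adjusted p = 0.695).

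miR-17 and miR-106a, of the same seed family, did likewise. miR-17 had 6228, 3857, 1852 and 10515 in lung and 0, 5516, 2922 and 3514 in liver, and miR-106a had 6478, 3655, 1967 and 0 and 6059, 0, 3098 and 3694. In each library with a 0 for one name the second name was above 0, and the sum of both was 3818 to 12705 in lung and 6059, 5516, 6020 and 7207 in liver (log2 FC 0.35 ± 0.35 (SE), adjusted p = 0.428). miR-1307 had 659.6, 635, 1050.3 and 445 in lung and 1101, 1348, 0 and 0 in liver, and miR-142-5p was at 0 in 5 of the 8 libraries. miR-199a-5p and miR-199b-5p kept a fixed ratio instead: in all 8 libraries the second was 0.488 to 0.493 of the first, and the SD of their log2 ratio was 0.0052, against 0.098 for the next closest of 15400 pairs of names. The values of these names were therefore read as uncertain.

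**Figure D5:**
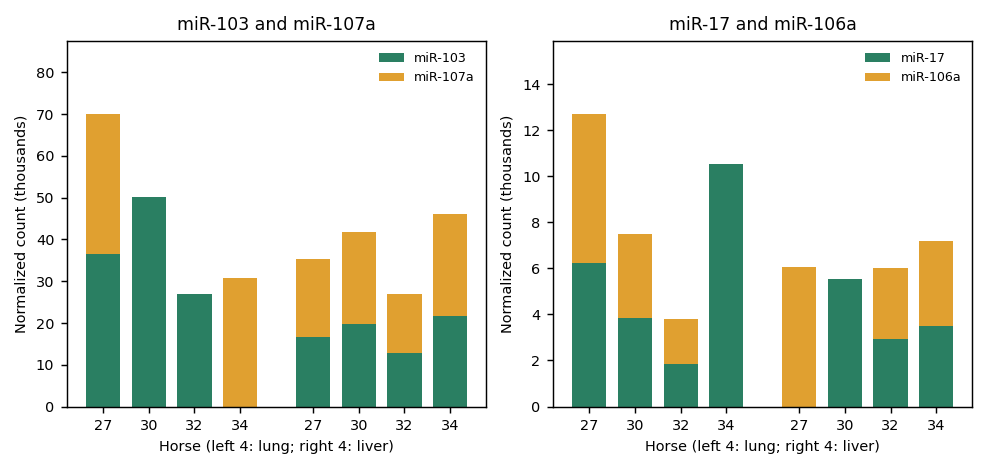
Normalized counts, in units of 1000 (vertical), of miR-103 and miR-107a (left) and of miR-17 and miR-106a (right) in the 4 lungs and 4 livers, stacked by name, with 1 bar per horse and tissue. In the lungs of horses 30, 32 and 34 and, for the second pair, the lung of horse 34 and the livers of horses 27 and 30, 1 of the 2 names is at 0, while no stacked bar is.

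Both arms of a hairpin were named for miR-324 and miR-671 alone. For miR-671 both arms were listed at the same value in 7 of the 8 libraries, and for miR-324 at least 1 arm was at 0 in 6 of the 8, so that the balance of arms was compared for neither.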

How the data were processed

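Small RNA from 4 lung and 4 liver samples was analysed; the heart samples entered 1 alternative fit. Tools in the submitters' processing notes are BWA, Trimmomatic, bcl2fastq, FastQC and DESeq2, while the paper's methods name Trim Galore and sRNAbench with miRBase for trimming and counting, at a minimum read count of 6. The deposited values are read counts that the authors divided by a size factor per library (DESeq2), here handled as a signal and not as raw counts. The table's own comparison of liver and lung (fold changes and p-values) was not used. In every library 100% of values above 0 were whole multiples, within 0.01, of a sixth of the lowest value, from which the reads were derived. Because entries under 6 reads are listed at 0, no count model was fitted.

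Groups and horse numbers came from the sample labels. Known miRNAs that reached 10 normalized counts in 4 or more of the 8 libraries entered the test, on log2(value + 1) with limma 3.58.1 (variance trend) in R 4.3.3, without a term for the horse, at an adjusted p under 0.05 (Benjamini-Hochberg) and a log2 fold change of 1 or more in size. On simulated data for this comparison (243 miRNAs, 20 runs), 71.3% of changes of 1.5 and 90.1% of changes of 3 on the log2 scale were called, and 1.01% of unchanged miRNAs. Shares of the libraries were compared with exact two-sided permutation tests. Figures and tables used Python 3.11.15 with matplotlib 3.10.9, scipy 1.17.1, pandas 2.3.3 and numpy 2.4.6. Samples are paired by horse number, because a number stands for 1 animal; deviations from the tissue means correlated between -0.14 and 0.13 for lung and liver of the same horse (median -0.13, 4 pairs) and between -0.22 and 0.18 for different horses (median 0.06, 12 pairs). P-values of the main fit and of the tests without the block rest on the spread among libraries of 1 tissue, each from a different horse.

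The miRNAs named were the 10 most abundant of each tissue, the 15 calls with the largest fold in each direction that did not overlap and reached a mean of 100 in the higher tissue, those at 0 in 1 tissue and above 0 in all 4 of the other, the 3 most abundant of each of 25 lists, and the 5 with the largest spread among horses in each tissue. miR-155, miR-342-5p, miR-365, miR-193b, miR-758 and other neighbours or list members outside that rule were named after their values were seen. The miRNAs and lists were chosen with earlier results of these data known. Mature sequences of the known miRNAs were not used here, so families with a shared seed were not tested. The 335 entries named by sequence entered 1 alternative fit. Alternatives varied the pseudocount, filter, scaling, horse block, libraries and names.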

Additional observations from a re-analysis of the deposited data

Results flagged for a closer look

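The miRNAs named include the 5 of each tissue chosen for the largest spread among horses. A count of horses that stand apart can therefore not be set against chance. In 15 of 166 sets of 4 libraries of 1 tissue examined for the miRNAs named, 1 horse stood apart from the other 3 on the log2 scale. In 4 sets this was a name at 0: miR-103 and miR-106a were at 0 in the lung of horse 34, against 27063 to 50229.8 and 1967 to 6478 normalized counts in the other lungs, miR-106a was at 0 in the liver of horse 30 and miR-17 at 0 in the liver of horse 27. In the reverse case, miR-142-5p was at 4607 in the liver of horse 34 and miR-144 at 1349.7 in the lung of horse 34, with the other 3 at 0.

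The lung of horse 34 also stood apart in miR-127 (941 against 1304 to 1392), miR-29c (3007 against 552 to 701) and miR-30e (19965 against 8238 to 9065). The lung of horse 32 was apart in miR-21, at 352516 against 195326 to 214818, and in miR-9a, at 235 against 544 to 599.6. In the lung of horse 27, miR-34b-5p was at 3275 against 6085 to 6733 and miR-450b-5p at 478 against 958 to 1089. The liver of horse 32 was apart in miR-30e, at 19258 against 9740 to 10497, and in miR-99a, at 91323 against 181278 to 189518.

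Among the entries named by sequence, which the comparison of known miRNAs leaves out, 1 nested pair of 72 was split by tissue. The 2 sequences are shown because the second is the first with 2 more bases at its 3′ end, in capitals.
Lung entry: aaaagcuggguugagagggcgaa
Liver entry: aaaagcuggguugagagggcgaaAA
The entry of 23 bases had 6627, 10134, 6408 and 4161 in lung, a mean of 6832 ± 2467 (SD, n = 4), and was at 0 in all 4 livers. The entry of 25 bases had 9537, 8523, 12151 and 16499 in liver, a mean of 11677 ± 3559, and was at 0 in all 4 lungs. Their sum, 6832 ± 2467 in lung and 11677 ± 3559 in liver, overlapped between the tissues (exact two-sided permutation test, p = 0.0857).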

How the results depend on the processing

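The 133 calls stayed within 1.5 times under every alternative run: 129 to 140 under another pseudocount, filter, scaling, all 12 libraries in 1 fit or the horse as a replicate block, 141 with no fold minimum, 122 to 123 without 1 horse, 124 to 137 without 1 library, and, in the alternatives chosen after seeing the data, 133 with all entries of the table and 136 with names summed. No call changed direction in these fits. The block left 131 calls, without miR-143 and miR-381 (both at adjusted p = 0.0615). Scaling every library to the same total moved the median log2 fold change by 0.17 (70 higher, 65 lower) and TMM scaling by -0.10 (56 higher, 73 lower). Of 2194 values of 100 named miRNAs, 54 lost their call, 13 gained one and 2 changed sign, in 18 miRNAs. The 2 were miR-103, at 1.19 without horse 34 and 1.08 without the lung of horse 34; leaving out 1 horse or library, its log2 fold change ran from -4.12 to 1.19. The share of the 10 most abundant miRNAs, whose difference of lung minus liver was -8.87 points, was -7.24 to -11.1 points without 1 horse, where an exact test cannot pass, and with the horse as a block its p was 0.125, the smallest that 4 pairs allow; it was past the threshold with 5, 20 or all entries. Depth limits the scarce names: 0 stands for fewer than 6 reads. The edgeR and DESeq2 fits and the test of seed families were not run, nor was the comparison of hairpin arms used, since the arms of miR-671 were listed at equal values.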

Other observations

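Some called miRNAs outside the lists are described here, chosen after their values were seen. miR-483, from an intron of IGF2, had 3506, 2279, 5763 and 3549.6 in liver and 399, 263, 198 and 509 in lung (log2 FC -3.47 ± 0.38 (SE), adjusted p = 7.42e-05). miR-675, made from the H19 RNA of the same locus, had 466, 332, 356 and 363 and 93.4, 75.4, 20.3 and 40.7 (log2 FC -2.91 ± 0.46 (SE), adjusted p = 0.000663), and miR-335, from an intron of MEST, had 244, 274, 175 and 569 and 32.2, 47, 51.9 and 112 (log2 FC -2.37 ± 0.47 (SE), adjusted p = 0.00283). In each of these every liver was above every lung.

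Further examples chosen in the same way follow. miR-31 had 1375, 1534, 2153 and 2587 in liver and 138, 56.9, 61.7 and 107 in lung (log2 FC -4.43 ± 0.36 (SE), adjusted p = 1.42e-05). miR-101, which targets the mRNA of EZH2, had 67550.0, 63286, 105427 and 56053 and 10835, 15951, 14548 and 25084 (log2 FC -2.16 ± 0.30 (SE), adjusted p = 0.000286), and miR-378, from an intron of PPARGC1B, had 10652, 12022, 8758 and 9743 and 4319, 4078, 4506 and 2255 (log2 FC -1.48 ± 0.26 (SE), adjusted p = 0.00115). In the opposite direction, miR-211, from an intron of TRPM1, had 2584, 1208, 1612 and 1587 in lung and 359, 257, 140.3 and 143 in liver (log2 FC 3.01 ± 0.38 (SE), adjusted p = 0.000154).

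Of the 335 entries named by sequence, 49 passed the filter on low values, and in the fit of all entries 8 were higher and 11 lower in lung. Known miRNAs held 95.1 ± 0.342% of the values in lung and 97.5 ± 0.290% in liver (SD, n = 4; exact two-sided permutation test, p = 0.0286, adjusted over 8 measures 0.0381; with the horse as a block 0.125), without overlap.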
